A study of Mus musculus with 6 samples.

Results

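The genes described here are 10 genes of the trophectoderm and of simple epithelia: the transcription factor genes *Cdx2*, *Elf5*, *Gata3*, *Tfap2c* and *Hand1*, the keratin genes *Krt7*, *Krt8*, *Krt18* and *Krt19*, and the placental gene *Plac1*. They were chosen by name, with earlier results of these data known, from 55385 genes with a read count in the files. Of the 10 genes, 9 had at least 10 counts in at least 2 libraries and were among the 16951 genes tested. *Elf5* was not. Because the genes were selected on the same libraries, their levels and fold changes are given as a description, without p-values.

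RNA was sequenced from mESCs, mouse embryonic stem cells, of the G4 line, an F1 hybrid of 129/Sv and C57BL/6, kept with leukemia inhibitory factor (LIF) on CD1 feeder cells in all 3 groups. To ask what the loss of a Polycomb loop anchor does to RNA in these cells, the groups were wild-type cells and cells from which CRISPR-Cas9 had removed the *Wnt6* loop anchor on one chromosome (heterozygous) or on both (homozygous). The mutant cells came from single clones, and whether the libraries of a genotype share a clone is not given in the sources used here. Effects of the deletion can therefore not be told apart from differences between clones. The labels name 2 libraries per genotype, although the methods speak of biological triplicates. The labels do not say whether these libraries came from separate cultures, so the errors measure the spread between these libraries only. Counts do not separate RNA of mESCs from RNA of feeder cells, and fewer cells of a type cannot be told apart from less RNA per cell.

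The trophectoderm is the first epithelium of the mouse embryo and gives rise to the trophoblast of the placenta. Low Hippo signaling in its outer cells lets YAP1 and TEAD4 switch on *Cdx2*, and CDX2, GATA3, TFAP2C and later ELF5 maintain the trophoblast program while pluripotency factors hold it down in embryonic stem cells. Keratins of simple epithelia assemble as obligate pairs of a type II protein (KRT8 or KRT7) with a type I protein (KRT18 or KRT19), and KRT8 and KRT18 are the first intermediate filament proteins made by the embryo.

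Promoter windows of the keratin genes of chromosome 15 and of *Gata3* are shown because these were called higher in the homozygous deletion, although in the heterozygous deletion only the keratin genes were and the order of the genotypes differed between them. The windows run from 250 bases before to 50 bases after an annotated start and come from RefSeq on build GRCm38.p6: chr15:102004293-102004592 on the minus strand for *Krt8*, chr15:102027966-102028265 on the plus strand for *Krt18*, chr15:101412153-101412452 on the plus strand for *Krt7* and chr2:9878551-9878850 on the minus strand for *Gata3*. Each is written 5′ to 3′ along the gene, with motif matches in capitals.
Krt8: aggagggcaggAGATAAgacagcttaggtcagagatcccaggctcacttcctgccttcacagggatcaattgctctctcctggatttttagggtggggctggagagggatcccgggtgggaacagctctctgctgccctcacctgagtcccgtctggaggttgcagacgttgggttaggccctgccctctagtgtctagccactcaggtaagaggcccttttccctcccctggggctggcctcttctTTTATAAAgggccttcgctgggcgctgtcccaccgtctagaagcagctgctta
Krt18: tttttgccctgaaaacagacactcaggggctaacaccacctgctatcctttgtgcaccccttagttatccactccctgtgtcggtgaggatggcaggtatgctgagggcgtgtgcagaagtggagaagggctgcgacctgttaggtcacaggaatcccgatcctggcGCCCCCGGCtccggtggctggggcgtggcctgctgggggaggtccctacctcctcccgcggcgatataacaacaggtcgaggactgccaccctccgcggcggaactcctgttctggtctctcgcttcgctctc
Krt7: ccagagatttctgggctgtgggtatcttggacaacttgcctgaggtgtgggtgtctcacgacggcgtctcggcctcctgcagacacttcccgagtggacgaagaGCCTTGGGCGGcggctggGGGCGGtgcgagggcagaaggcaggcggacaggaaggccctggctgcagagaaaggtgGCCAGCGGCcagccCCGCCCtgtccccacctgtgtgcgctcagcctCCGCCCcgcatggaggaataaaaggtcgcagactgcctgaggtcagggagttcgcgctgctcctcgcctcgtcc
Gata3: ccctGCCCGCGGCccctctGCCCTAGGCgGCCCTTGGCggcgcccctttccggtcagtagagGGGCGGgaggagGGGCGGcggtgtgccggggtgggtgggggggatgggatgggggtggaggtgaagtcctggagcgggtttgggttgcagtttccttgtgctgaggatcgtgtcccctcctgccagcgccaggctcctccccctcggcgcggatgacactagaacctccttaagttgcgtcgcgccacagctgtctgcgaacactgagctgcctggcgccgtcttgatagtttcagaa
The motifs searched on both strands were the TATA box (TATAAA), the GC box bound by SP1-type factors (GGGCGG), the AP-2 motif of the TFAP2C family (GCCNNNGGC), the GATA motif (AGATAA), the TEAD motif (GGAATG) and the AP-1 motif (TGANTCA). In the *Krt8* window, the capitals near the end are a TATA box read on both strands, starting at -3 and -1 from the annotated start, and those near the beginning are a GATA motif at -239. The *Krt18* window held only an AP-2 motif, at -83. The *Krt7* window held 4 GC boxes and 2 AP-2 motifs, and its first AP-2 motif, at -146, overlaps the GC box at -141. The *Gata3* window held 3 AP-2 motifs and 2 GC boxes. No AP-1 or TEAD match was found in these 4 windows. Of 32851 RefSeq windows of this length, 13.6% held the TATA box, 35.7% the GC box, 16.6% the AP-2 motif, 11.2% the GATA motif, 14.7% the TEAD motif and 7.81% the AP-1 motif. The GC content was 58% for *Krt8*, 61.3% for *Krt18*, 66.3% for *Krt7* and 67.3% for *Gata3*, against a median of 52.7% over all windows. Among the other genes, *Cdx2* held 1 AP-2 motif at -16, a TEAD motif was found in 1 of 2 windows of *Elf5*, and *Plac1* held a GC box in one window and a GATA motif in the other. Windows were found for 7 of the 10 genes, not for *Tfap2c*, *Krt19* or *Hand1*. A match describes letters in a window and not a bound site.

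Library totals ranged from 23813912 to 28964706 counts, and 3 counts correspond to between 0.102 and 0.131 CPM, the counts scaled to a common library size adjusted by TMM. *Wnt6*, which lies in the deleted anchor, had 11 and 13 counts in the wild-type libraries, 6 and 4 with the heterozygous deletion and 0 and 0 with the homozygous deletion, in the order of the labels. Within each genotype the spread between its libraries exceeded sampling noise (chi-square over degrees of freedom from 2.31 to 3.52).

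In wild-type mESCs, levels were compared between genes as CPM per kb of annotated exon. The most abundant of the 10 were the keratin partners, *Krt18* at 160 ± 4.68 CPM per kb and *Krt8* at 144 ± 1.56 CPM per kb (SD, n = 2). They lay above 98.6% and 98.4% of the tested genes. *Krt19* followed at 15.9 ± 0.92 CPM per kb and *Tfap2c*, which is also used by germ cells, at 8.35 ± 0.253 CPM per kb (SD, n = 2). *Tfap2c* lay above 67.5% of the tested genes. *Krt7* was at 1.3 ± 0.0301 CPM per kb (SD, n = 2), over an annotated exon length of 7049 bases. The other transcription factor genes and *Plac1* were low. *Hand1*, needed for trophoblast giant cells, was at 0.832 ± 0.237, *Gata3* at 0.496 ± 0.0362, *Cdx2* at 0.47 ± 0.0693 and *Plac1* at 0.397 ± 0.113 CPM per kb (SD, n = 2), with between 16.2% and 27.1% of tested genes below them. *Elf5*, a gatekeeper of the trophoblast stem cell state, was lowest at 0.0153 ± 0.00286 CPM per kb (SD, n = 2), from 3 and 2 counts. In this order *Gata3* and *Cdx2* overlapped between their wild-type libraries, as did *Cdx2* and *Plac1*, and all other neighbors were apart. The 10 genes thus held abundant keratin RNA and intermediate *Tfap2c* RNA beside little RNA of *Cdx2* and a few counts of *Elf5*. The name trophectoderm describes where the genes are known from, not these cells.

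The keratin genes were higher in both deletions than in wild-type cells, and by different amounts in each. *Krt8* was at 284 and 280 CPM in the wild-type libraries, 488 and 457 in the heterozygous and 392 and 357 in the homozygous libraries. All heterozygous libraries lay above all homozygous libraries, which in turn lay above wild-type. The fitted log2 fold change of *Krt8* was 0.75 (SE 0.048, 95% interval 0.65 to 0.85) for the heterozygous and 0.41 (SE 0.0481, 0.31 to 0.51) for the homozygous deletion, or 1.68-fold and 1.33-fold.

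*Krt18*, the type I partner of *Krt8*, was at 225 and 235 CPM in wild-type libraries, 395 and 396 with the heterozygous deletion and 291 and 276 with the homozygous deletion. The order of the genotypes was that of *Krt8*, with no overlap. Its log2 fold change was 0.78 (SE 0.043, 0.69 to 0.87) for the heterozygous and 0.30 (SE 0.0433, 0.21 to 0.39) for the homozygous deletion. Between the deletions, the homozygous libraries were lower by a log2 difference of -0.34 (-0.44 to -0.24) for *Krt8* and -0.48 (-0.57 to -0.39) for *Krt18*.

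*Krt19*, the smallest keratin and a second type I partner, had another order. It was at 30.7 and 28.3 CPM in wild-type libraries, 48.3 and 44 with the heterozygous deletion and 59.1 and 55.9 with the homozygous deletion, so that the homozygous libraries were highest and no groups overlapped. The log2 fold change was 0.64 (SE 0.0657, 0.50 to 0.78) for the heterozygous and 0.96 (SE 0.0646, 0.82 to 1.09) for the homozygous deletion, and the homozygous deletion exceeded the heterozygous by 0.32 (SE 0.0619, 0.19 to 0.45).

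*Krt7*, a type II keratin of ducts and trophoblast, was at 9.01 and 9.31 CPM in wild-type libraries, 14.5 and 14.4 with the heterozygous deletion and 14.1 and 11.7 with the homozygous deletion. Both deletions were above wild-type without overlap, by a log2 fold change of 0.66 (SE 0.0999, 0.45 to 0.87) and 0.49 (SE 0.103, 0.27 to 0.70). The deletions differed from each other by -0.17 (-0.37 to 0.03), an interval that includes 0.

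**Figure D1:**
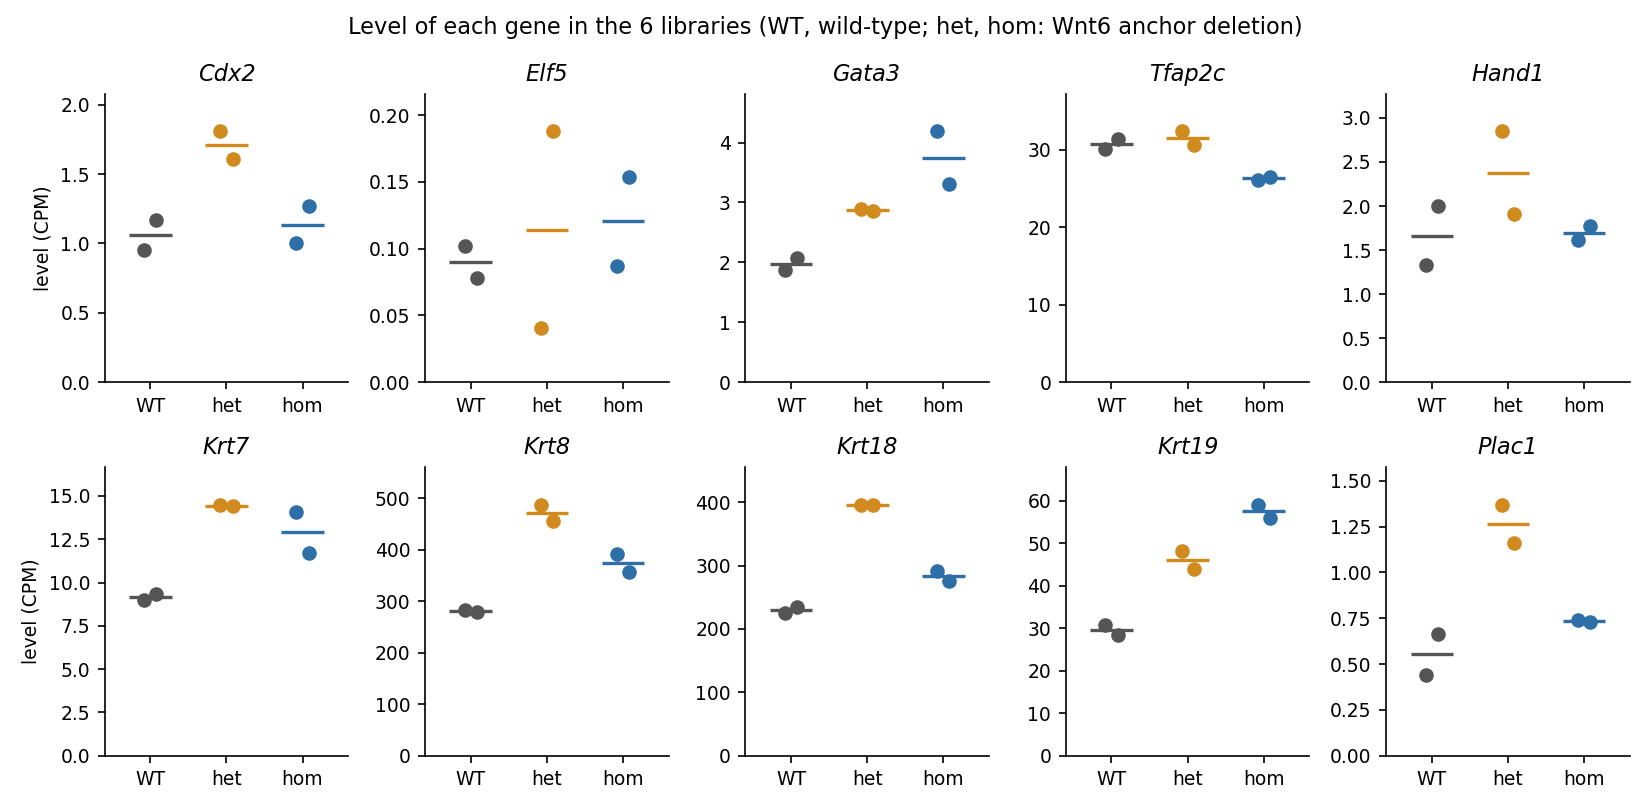
Level of each of the 10 genes in CPM (vertical axis, from 0, scaled per gene) in the wild-type (WT), heterozygous (het) and homozygous (hom) deletion libraries; points are single libraries and lines are means of 2. *Krt8* and *Krt18* were highest in the heterozygous libraries (means of 473 and 396 CPM), while *Krt19* and *Gata3* were highest in the homozygous libraries (57.5 and 3.75 CPM).

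Since keratins pair as type II with type I, the balance of the partners was computed per library. The ratio of *Krt8* to *Krt18*, both per kb, was 0.925 and 0.874 in wild-type libraries, 0.906 and 0.848 with the heterozygous deletion and 0.989 and 0.95 with the homozygous deletion. The homozygous libraries lay above the other 4, and wild-type and heterozygous libraries overlapped. Summed over both genes of each type, the ratio of type II to type I was 0.826 ± 0.0263 in wild-type, 0.811 ± 0.0336 in heterozygous and 0.846 ± 0.0245 in homozygous libraries (SD, n = 2), a difference within the spread.

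Within the type I pair the makeup differed. *Krt19* took 9.56% and 8.55% of the summed *Krt18* and *Krt19* level per kb in wild-type, 8.64% and 7.93% in heterozygous and 13.6% in both homozygous libraries. The wild-type and heterozygous shares overlapped, and the homozygous shares were above both. With annotated exon lengths, *Krt7* took under 1% of the type II level per kb in each group, with means of 0.895%, 0.842% and 0.946%. These means use 7049 bases for *Krt7*, whose longest protein-coding transcript has 4094 bases. A shorter length gives a higher share. The 4 keratin genes together made up 551 ± 2.18 CPM in wild-type, 929 ± 24.5 in heterozygous and 728 ± 40.1 in homozygous libraries (SD, n = 2). These shares and sums come from the values that chose the genes and were not tested.

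**Figure D2:**
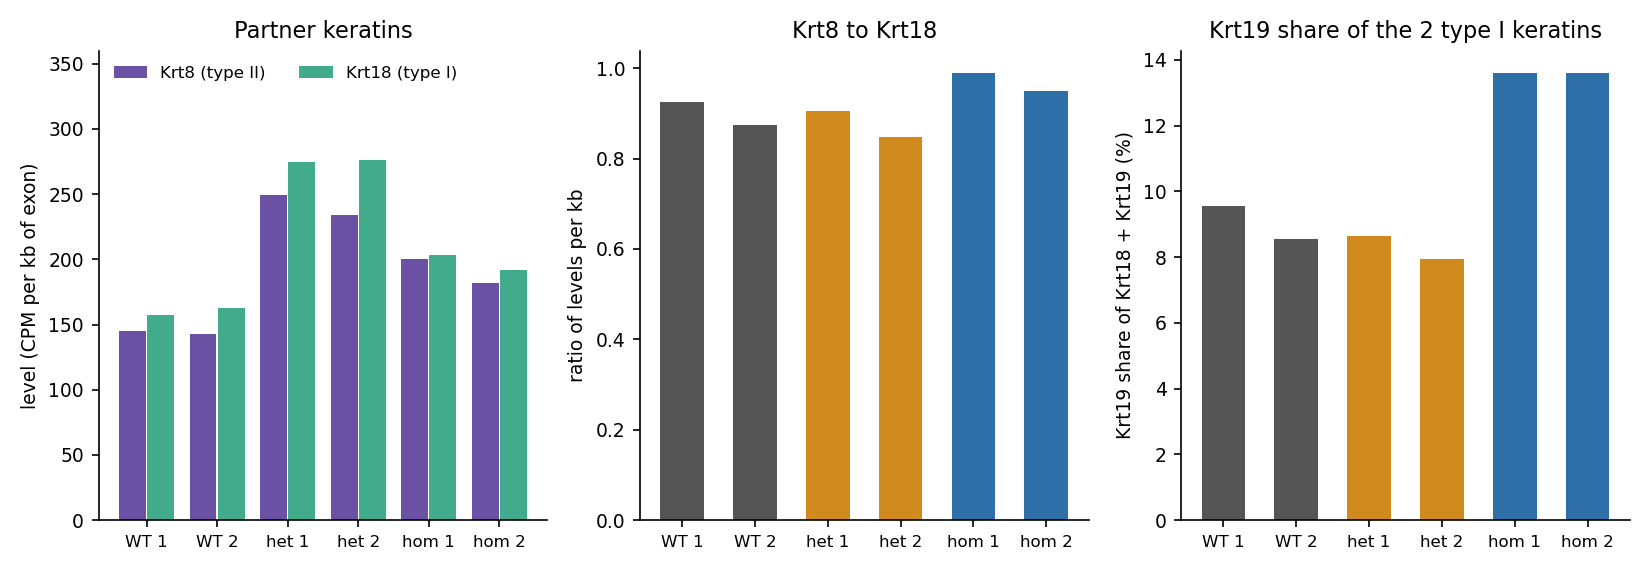
Left, *Krt8* and *Krt18* in CPM per kb of exon (bars from 0) in each of the 6 libraries; middle, the ratio of *Krt8* to *Krt18*; right, the share of *Krt19* in the summed level of *Krt18* and *Krt19*, with bars colored by genotype. The partners rose together in the heterozygous libraries while their ratio stayed between 0.848 and 0.925 in wild-type and heterozygous libraries, and the *Krt19* share reached 13.6% in the homozygous libraries.

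Among the transcription factor genes, *Gata3*, which acts beside *Cdx2* in trophectoderm and later in many epithelia, had 55 and 53 counts in the wild-type libraries, 72 and 76 with the heterozygous deletion and 96 and 86 with the homozygous deletion. Its levels were 1.97 ± 0.144, 2.87 ± 0.0269 and 3.75 ± 0.627 CPM (SD, n = 2), and no groups overlapped. The log2 fold change was 0.55 (SE 0.194, 0.14 to 0.95) in the heterozygous deletion, which was not called, and 0.92 (SE 0.187, 0.53 to 1.31) in the homozygous deletion, which was. The homozygous deletion exceeded the heterozygous by 0.37 (0.01 to 0.74), and this difference was called only when homozygous replicate 2 was left out, at 0.54.

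*Tfap2c*, which encodes AP-2 gamma, was the only one of the 10 genes called lower than in wild-type cells. It was at 30.1 and 31.4 CPM in wild-type libraries, 32.4 and 30.6 with the heterozygous deletion and 26.1 and 26.5 with the homozygous deletion, so the homozygous libraries were below the other 4, which overlapped. The log2 fold change was 0.04 (SE 0.0644, -0.10 to 0.17) for the heterozygous and -0.22 (SE 0.0663, -0.36 to -0.08) for the homozygous deletion, and -0.26 (SE 0.0666, -0.40 to -0.12) between the deletions. The call of the homozygous deletion was lost with DESeq2 and without wild-type replicate 1 (-0.25), wild-type replicate 2 (-0.18) or homozygous replicate 1 (-0.20). That between the deletions was lost with DESeq2 and without heterozygous replicate 1 (-0.22).

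*Cdx2*, the homeobox gene that specifies trophectoderm, had 28 and 30 counts in the wild-type libraries, 45 and 43 with the heterozygous deletion and 23 and 33 with the homozygous deletion. The heterozygous libraries lay above the other 4, which overlapped. No comparison of *Cdx2* was called, with log2 fold changes of 0.69 (SE 0.258, 0.15 to 1.23), 0.11 (SE 0.283, -0.48 to 0.70) and, between the deletions, -0.58 (SE 0.26, -1.12 to -0.04). *Hand1* had 39 and 51 counts in the wild-type libraries, 71 and 51 with the heterozygous deletion and 37 and 46 with the homozygous deletion, overlapped between wild-type and both deletions on the CPM scale, and was called in no comparison. Its log2 fold changes were 0.53 (0.02 to 1.04) and 0.04 (-0.51 to 0.60). *Elf5* had between 1 and 5 counts in each library. Its summed counts gave ratios to wild-type of 1.28 (exact 95% interval 0.325 to 5.3) for the heterozygous and 1.35 (0.342 to 5.58) for the homozygous deletion, intervals that cover counting error only, so neither a rise nor a fall was detectable at this depth.

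*Plac1*, an X-linked gene of trophoblast, had 13 and 17 counts in the wild-type libraries, 34 and 31 with the heterozygous deletion and 17 and 19 with the homozygous deletion. Its levels were 0.554 ± 0.158, 1.26 ± 0.142 and 0.736 ± 0.00859 CPM (SD, n = 2), with the heterozygous libraries above all others and no overlap of homozygous with wild-type. The log2 fold change of 1.20 (SE 0.329, 0.52 to 1.89) in the heterozygous deletion was the largest of the 10 genes and the only one above 1 in any comparison. It lost its call when either wild-type or either heterozygous library was left out, at 0.92 and 1.50 without wild-type replicates 1 and 2 and 1.08 and 1.31 without heterozygous replicates 1 and 2. The homozygous deletion was not called, at 0.42 (-0.35 to 1.20).

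**Figure D3:**
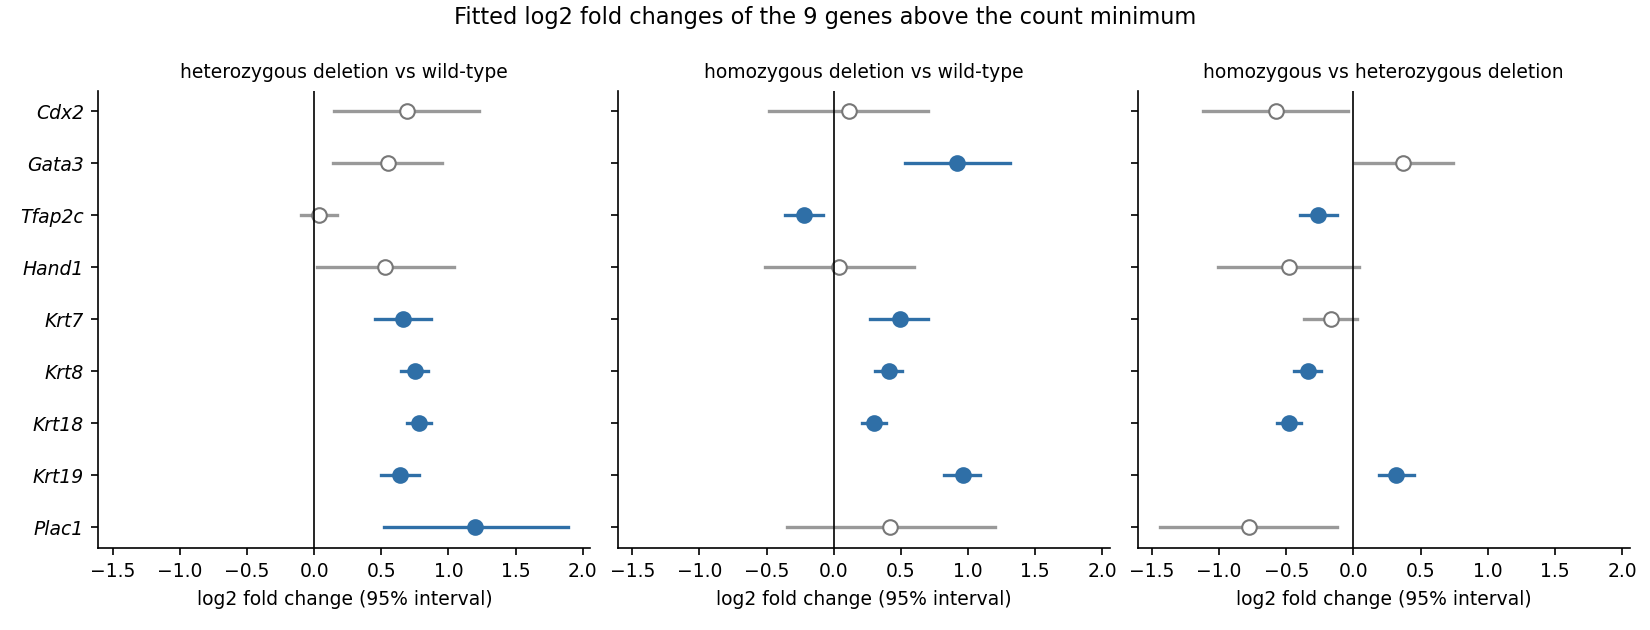
Fitted log2 fold changes (horizontal axis) of the 9 tested genes with 95% intervals in the 3 comparisons; filled blue points were called at an adjusted p below 0.05 over all genes tested, open points were not. The 4 keratin genes were called above wild-type in both deletions, at 0.64 to 0.78 in the heterozygous and 0.30 to 0.96 in the homozygous deletion.

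Genes were called at a Benjamini-Hochberg adjusted p below 0.05 over all 16951 genes in edgeR's quasi-likelihood test. Of the 9 tested genes, 5 were called higher in the heterozygous deletion (*Krt7*, *Krt8*, *Krt18*, *Krt19* and *Plac1*) and 0 were called lower, where 2.23% of all tested genes were called higher and 2.91% lower. With the study's added threshold of an absolute log2 fold change above 1, *Plac1* remained, where 0.165% of all tested genes passed. In the homozygous deletion, 5 were called higher (*Gata3* and the keratin genes) and 1 lower (*Tfap2c*), against 10.9% and 10.5% of all tested genes, and 0 passed the fold threshold, against 2.14%. Between the deletions, 1 was called higher in the homozygous (*Krt19*) and 3 lower (*Krt8*, *Krt18* and *Tfap2c*), against 12.9% of all tested genes in each direction, and 0 passed the fold threshold, against 1.39%. The median log2 fold change of the 9 genes was 0.66, 0.41 and -0.34 in the 3 comparisons, and that of all tested genes 0.00, -0.01 and -0.02. Nothing was read from these counts, because the same contrasts chose the genes, and the comparisons share libraries.

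Near-identical copies held few reads. The only annotated transcript with at least 90% identity over at least 50% of one of the 10 genes' transcripts was that of *Gm5200*, a copy of *Krt18* (90.5% identity over 88.2%), which had 0 counts in all libraries. The pseudogene *Krt8-ps* had between 9 and 28 counts. Genes annotated over *Gata3*, *Krt7* or *Krt8* had 8 counts or fewer in every library.

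The *Krt8* and *Krt18* genes lie on chromosome 15 of GRCm38, at 101996698 to 102004482 on the minus strand and 102028180 to 102032027 on the plus strand. They are 23.7 kb apart with 0 annotated genes between them. Of the other genes, *Gata3* (chr2:9857078-9890034, minus strand), *Tfap2c* (chr2:172549593-172558622, plus strand) and *Elf5* (chr2:103411688-103450989, plus strand) are far apart on chromosome 2. *Cdx2* (chr5:147300805-147307270), *Hand1* (chr11:57828705-57832818) and *Plac1* (chrX:53069995-53240111) are all on the minus strand. The neighbors of the pair were examined after the values were seen. Their counts stand beside the shares of all tested genes called higher and lower. These were 2.23% and 2.91% in the heterozygous deletion, 10.9% and 10.5% in the homozygous deletion, and 12.9% in each direction between the deletions. Of the 11 other tested genes within 250 kb of the pair, 0 were called higher and 4 lower in the heterozygous deletion (*Itgb7*, *Rarg*, *Csad* and *Zfp740*), with log2 fold changes from -0.54 to 0.17. *Krt8* and *Krt18*, at 0.75 and 0.78, were chosen with these values known, so their distance from the 11 neighbors was not a test. In the homozygous deletion 1 was called higher and 1 lower, from -0.48 to 0.28. Between the deletions 6 of the 11 were called higher and 1 lower in the homozygous libraries, from -0.51 to 0.82, while *Krt8* and *Krt18* were lower. *Krt7* (chr15:101411043-101430313, plus strand) had 6 tested neighbors within 250 kb, of which 0 were called in any comparison by edgeR or DESeq2 and at most 1 had an unadjusted p below 0.05. *Krt19* (chr11:100140810-100148665, minus strand) lies in the type I keratin cluster, where of 12 tested neighbors 0 were called higher and 1 lower (*Krt42*) in the heterozygous and 0 higher and 2 lower (*Krt9* and *Krt42*) in the homozygous deletion.

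Most other keratins were hardly detected. Of 50 other keratin genes, 11 were tested, 27 had 3 counts or fewer in every library and 11 of these had 0. *Krt42*, the most abundant of these 50 in counts, was at 25.3 ± 0.217, 19.3 ± 2.04 and 15.6 ± 2.33 CPM (SD, n = 2), the opposite direction to its neighbor *Krt19*. Its log2 fold change was -0.70 (adjusted p = 1.28e-05, edgeR) with the homozygous and -0.39 (adjusted p = 0.012, edgeR) with the heterozygous deletion, the latter lost without either wild-type library or heterozygous replicate 2 (-0.40 to -0.29). In all, 0 of the 11 were called higher than wild-type in either deletion, and 1 and 2 were called lower, with medians of 0.12 and 0.06. Of all tested genes, 2.23% and 10.9% were called higher and 2.91% and 10.5% lower in the heterozygous and homozygous deletion.

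Lists of related genes, written with earlier results known, were counted in the same fit. Over all 16951 genes, this fit called 2.23% up and 2.91% down with 1 deleted allele. With both alleles deleted it called 10.9% up and 10.5% down. Of 12 other trophectoderm genes, all tested, 4 were called higher and 0 lower in the heterozygous deletion (median 0.20), while the homozygous deletion had 1 called higher and 2 lower (median 0.13). *Bmp8b*, a ligand of the trophectoderm and germ line, was at 9.59 and 8.77 CPM in wild-type libraries, 14.4 and 16.1 with the heterozygous deletion and 11.2 and 10.1 with the homozygous deletion. It rose in the heterozygous deletion (log2 fold change 0.73, adjusted p = 7e-05, edgeR) and not in the homozygous (0.20, adjusted p = 0.189). *Id2*, an inhibitor of basic helix-loop-helix factors, rose in the homozygous (0.42, adjusted p = 0.000141, edgeR) and the heterozygous deletion (0.36, adjusted p = 0.0028), the latter lost without wild-type replicate 1 (0.26). Called lower in the homozygous deletion were *Ascl2* (-0.72, adjusted p = 0.0154, edgeR) and *Fgfr2* (-0.33, adjusted p = 0.00136, edgeR). The call of *Ascl2* was lost with DESeq2 (-0.71) and without wild-type replicate 1 (-0.47) or homozygous replicate 2 (-0.68). The heterozygous count fell to 1 without wild-type replicate 1 and to 2 without heterozygous replicate 1 or with DESeq2.

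Genes of differentiated trophoblast were mostly scarce, and none of those tested was called higher against wild-type. Of 12 placental trophoblast genes, *Prl3b1*, *Tpbpa*, *Synb* and *Ctsq* had 0 counts in all 6 libraries, 6 had 3 or fewer, and 5 were tested. In the heterozygous deletion 0 were called higher and 1 lower (median -0.30), and in the homozygous deletion 0 higher and 2 lower (median -0.41). Up calls made up 2.23% of all tested genes with 1 deleted allele and 10.9% with both deleted. Down calls made up 2.91% and 10.5%. With 5 genes tested, the lack of up calls was therefore not read as a result. The same shares apply to the paralogs below. *Hsd3b6*, a steroid enzyme of giant cells, had 29 and 28 counts in the wild-type libraries, 14 and 5 with the heterozygous deletion and 5 and 5 with the homozygous deletion. The giant cell hormone gene *Prl2c2* had 18 and 13, 10 and 6, and 1 and 3 counts. DESeq2 gave no adjusted p for either gene. *Gcm1*, a factor of the syncytial layer, had the highest level of the list at 2.63, 3.26 and 3.51 CPM on average and was not called (0.31, adjusted p = 0.396, and 0.43, adjusted p = 0.087, edgeR). The call of *Hsd3b6* in the heterozygous deletion was lost without either wild-type library or heterozygous replicate 2 (-1.56 to -0.88). Of 11 paralogs of the transcription factor genes (such as *Cdx1*, *Gata2* and *Tfap2a*), 8 were tested and 0 were called in the heterozygous deletion by edgeR or DESeq2, with 0 at an unadjusted p below 0.05 (median 0.09). *Elf3* alone was called in the homozygous deletion, at 0.22 (adjusted p = 0.0401, edgeR), and this was lost with DESeq2 (0.23), with total counts only (0.16, adjusted p = 0.127), with no filter (0.21, adjusted p = 0.0989), with the replicate block (0.22, adjusted p = 0.0524) and with any single wild-type or homozygous library left out (0.21 to 0.24).

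The Hippo pathway, which controls *Cdx2* in the embryo, had 19 tested genes. In the heterozygous deletion 5 were called higher and 2 lower (median 0.11), and in the homozygous deletion 2 higher and 6 lower (median 0.02). Of all tested genes, 2.23% and 10.9% were called higher and 2.91% and 10.5% lower in the heterozygous and homozygous deletion. The YAP1 target genes *Ankrd1* and *Ccn2* fell in both, by log2 fold changes of -0.60 (adjusted p = 0.000232, edgeR) and -0.33 (adjusted p = 3.54e-05) with 1 deleted allele and -1.17 (adjusted p = 2.21e-08) and -0.69 (adjusted p = 2.82e-10) with both deleted. Another target, *Ccn1*, was at 222, 256 and 185 CPM on average in wild-type, heterozygous and homozygous libraries, higher in the heterozygous (0.21, adjusted p = 0.00386, edgeR) and lower in the homozygous deletion (-0.26, adjusted p = 0.000105). *Ankrd1* and *Ccn2* thus had the genotype order of the fibroblast list (wild-type, heterozygous, homozygous), whereas *Ccn1* was highest in the heterozygous libraries, as *Krt8* and *Krt18* were. *Tead3* fell in the homozygous deletion (-0.43, adjusted p = 0.00012, edgeR), as did *Lats2* (-0.57, adjusted p = 0.00136). Leaving out heterozygous replicate 2 left 4 calls in the heterozygous deletion, and leaving out wild-type replicate 2 left 5 in the homozygous.

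Genes of epithelial junctions, to which keratin filaments attach, were all tested (23 genes). In the heterozygous deletion 8 were called higher and 0 lower (median 0.08), and in the homozygous deletion 12 higher and 1 lower (median 0.18). The shares of all tested genes called higher and lower were 2.23% and 2.91% in the heterozygous and 10.9% and 10.5% in the homozygous deletion. *Dsp*, the desmosome protein that binds keratin filaments, was at 61.8 ± 1.42, 97.9 ± 2.31 and 111 ± 0.662 CPM (SD, n = 2), the order shown by *Krt19*. Its log2 fold change was 0.66 (adjusted p = 3.96e-08, edgeR) and 0.85 (adjusted p = 1.13e-10). *Dsc2*, a desmosomal cadherin, was at 11.5 ± 0.00277, 19.2 ± 0.485 and 13.1 ± 0.0583 CPM (SD, n = 2), highest in the heterozygous libraries as were *Krt8* and *Krt18* (0.75, adjusted p = 8.35e-06, edgeR, and 0.20, adjusted p = 0.124). The cadherin gene *Cdh1* rose in the homozygous deletion (0.53, adjusted p = 4.33e-09, edgeR) and was at 0.02 (adjusted p = 0.882) in the heterozygous. The keratin linker *Ppl* rose in both (0.50, adjusted p = 0.000278, edgeR, and 0.51, adjusted p = 4.25e-05). *Plec* was the gene called lower in the homozygous deletion (-0.23, adjusted p = 0.00673, edgeR). *Epcam* was at 0.02 in both deletions and was not called (adjusted p = 0.867 and 0.789, edgeR). Without wild-type replicate 1, 8 junction genes were called in the homozygous deletion.

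**Figure D4:**
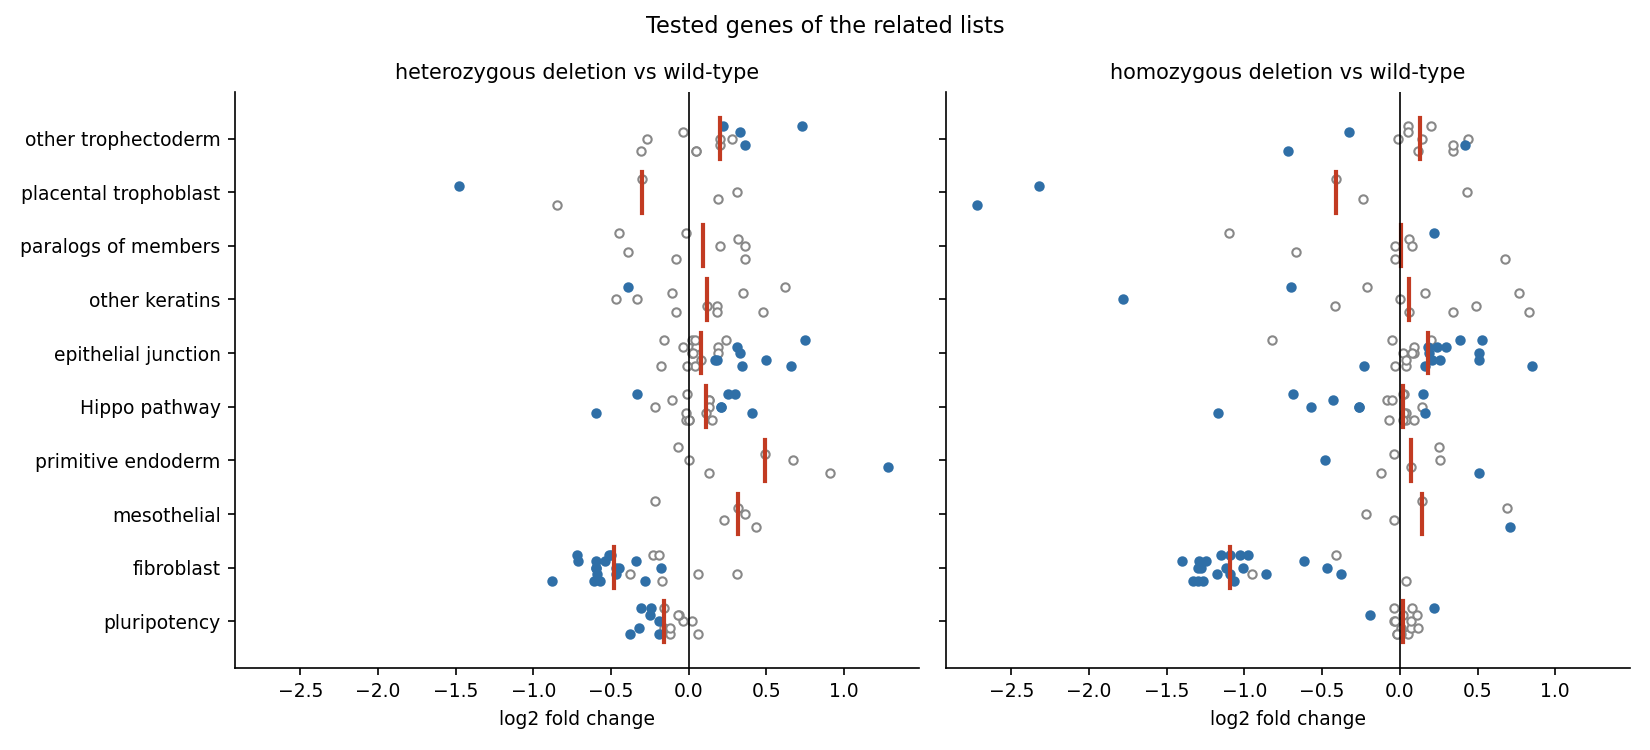
Fitted log2 fold changes (horizontal axis) of the tested genes of each list against wild-type, in the heterozygous (left) and homozygous (right) deletion; filled blue points were called, open points were not, and red bars are list medians. Fibroblast genes lay mostly below 0 (medians -0.48 and -1.09), and epithelial junction genes had medians of 0.08 and 0.18.

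Most tested fibroblast genes were lower in both deletions than in wild-type cells. Of 26 fibroblast genes, which feeder cells express, 24 were tested, and none was called higher against wild-type. In the heterozygous deletion 18 were called lower (median -0.48), and in the homozygous deletion 21 (median -1.09). Among all tested genes, 2.91% and 10.5% were called lower in these comparisons, and 2.23% and 10.9% higher. Their summed level was 4131 to 4207 CPM in wild-type, 3059 to 3114 in heterozygous and 2274 to 2295 in homozygous libraries, none of the 26 being at 0. For example, *Fn1* fell from 1668 ± 64.6 to 1317 ± 14.4 and 1086 ± 4.17 CPM (SD, n = 2), and *Vim*, the intermediate filament gene of mesenchyme, from 436 ± 4.8 to 315 ± 10.3 and 216 ± 0.341 CPM (SD, n = 2). *Krt19*, *Gata3* and *Dsp* followed the reverse order of this list, whereas *Krt8*, *Krt18*, *Krt7*, *Cdx2*, *Hand1* and *Plac1* had their highest mean in the heterozygous libraries, where the fibroblast sum was intermediate. The part of feeder RNA in these differences was not tested.

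Pluripotency genes, all 16 tested, summed to 4568 to 4675 CPM in wild-type, 4290 to 4334 in heterozygous and 4610 to 4834 in homozygous libraries. *Krt8* and *Krt18* were highest in the heterozygous libraries and *Krt19* and *Gata3* in the homozygous. A link to these sums was not tested. The lists of this paragraph stand beside 2.23% of all tested genes called higher and 2.91% lower in the heterozygous deletion. In the homozygous deletion these shares were 10.9% and 10.5%. With the heterozygous deletion 7 pluripotency genes were called lower and 0 higher (median -0.16). Among them *Esrrb* was at -0.38 (adjusted p = 1.69e-05, edgeR) and *Zfp42* at -0.31 (adjusted p = 0.000171). The count was 3 or fewer without wild-type replicate 1, wild-type replicate 2 or heterozygous replicate 2. *Pou5f1*, the core pluripotency factor gene, was at 982 ± 12.6, 903 ± 38.4 and 1020 ± 62.7 CPM (SD, n = 2). In the homozygous deletion 1 was called higher (*Zfp42*) and 1 lower (*Klf4*, -0.19, adjusted p = 0.0456, edgeR; median 0.02). The call of *Klf4* was lost with DESeq2, its size factors, no filter, the replicate block (-0.19, adjusted p = 0.0578) and any single wild-type or homozygous library left out (-0.21 to -0.17). Of 12 primitive endoderm genes, 7 were tested. Heterozygous cells had 1 called higher and 0 lower, *Cubn* at 1.28 (adjusted p = 9.3e-05, edgeR), with 59 and 44 counts in the wild-type libraries, 113 and 122 with the heterozygous deletion and 50 and 46 with the homozygous deletion. In the homozygous deletion 1 was called higher (*Lrp2*) and 1 lower (*Dab2*). Of 7 genes of mesothelium, an epithelium that also makes these keratins, 5 were tested. In the heterozygous deletion 0 were called by edgeR or DESeq2, 3 had an unadjusted p below 0.05 and 2 were called without either homozygous library. In the homozygous deletion 1 was called, *Msln* (0.71, adjusted p = 0.00392, edgeR). The call of *Msln* was lost without wild-type replicate 1 (0.63) or homozygous replicate 2 (0.34). The part of these cell types in the keratin values was not tested.

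Between the deletions, where *Krt8* and *Krt18* were lower and *Krt19* higher in homozygous libraries, the lists are read against the 12.9% of all tested genes called in each direction. Of the pluripotency genes 11 of 16 were called higher and 0 lower in the homozygous libraries (median 0.17), which became 6 without homozygous replicate 1 and 7 without heterozygous replicate 2. Of the 19 Hippo genes 1 was called higher and 11 lower (median -0.22), and of the 24 tested fibroblast genes 1 and 20 (median -0.59). The 23 junction genes had 4 higher and 3 lower (median 0.03), in all 3 without heterozygous replicate 1. The 12 other trophectoderm genes had 1 called higher and 4 lower (median -0.11), in all 3 without heterozygous replicate 1 or homozygous replicate 2 and 2 with DESeq2. Among them *Bmp8b* was at -0.53 (adjusted p = 0.000421, edgeR). The remaining lists had few tested genes, with 1 higher and 3 lower of 7 for primitive endoderm, 1 and 3 of 11 for the other keratins, 1 and 1 of 5 for mesothelium and 1 and 0 of 8 for the paralogs. The paralog call, *Elf3* at 0.25 (adjusted p = 0.0216, edgeR), was lost with DESeq2, with total counts only (0.18) and without heterozygous replicate 1 (0.24), heterozygous replicate 2 (0.25) or homozygous replicate 1 (0.24). Without single libraries the mesothelial count fell from 2 to 1 (heterozygous replicate 1, heterozygous replicate 2 or homozygous replicate 2), and that of the other keratins from 4 to 1 without heterozygous replicate 1 and to 2 without any of the other 3 libraries compared.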

How the data were processed

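RNA sequencing of 3 genotypes, with 2 libraries each, was analysed, and genotype and replicate number came from the sample labels. Whole-number counts per gene, without normalization, were deposited by the authors. The submitters' processing notes name Trimmomatic 0.39, STAR 2.6.1d, SAMtools 1.9, featureCounts 1.6.4 and DESeq2 1.22.2, and builds mm10 and GRCm38. The library kit was stranded, but the strand setting of the counting is not given in the sources used here.

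Genes reaching 10 counts in 2 or more libraries were fitted in edgeR 4.0.16 (TMM, quasi-likelihood, R 4.3.3), with all 6 libraries in one model of genotype and Benjamini-Hochberg adjustment over all genes. The fit was tested on simulated data with the same fixed dispersion for every gene, which cannot show how clones or cultures vary. The common biological coefficient of variation was 3.52%. Exon lengths came from GENCODE M21, in which 55144 of 55385 gene identifiers were found, and differ from transcript lengths where isoforms are many.

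The genes and lists were chosen with earlier results of these data known. Names beside the 10 genes were drawn by rule from up to 4 called genes per list with the largest change in any comparison. Also eligible were the 2 most abundant fibroblast and pluripotency genes. Not all of these are named, and those left out include *Thy1*, *Col6a1*, *Gata6* and *Sox21*. Names outside this rule, and the neighbors, were chosen after their values were seen. Alternatives tried were DESeq2 1.42.0, DESeq2 size factors in edgeR, total counts, other filters, only the libraries compared, a replicate block and each library left out.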

Additional observations from a re-analysis of the deposited data

How the results depend on the processing

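No called fold change of the 9 tested genes changed sign under the alternatives tried. Uncalled values did for *Cdx2* (-0.07 to 0.27) and *Hand1* (-0.24 to 0.36) in the homozygous and *Tfap2c* (-0.01 to 0.08) in the heterozygous deletion. The calls of *Krt7*, *Krt8*, *Krt18* and *Krt19* against wild-type held under all of them at an adjusted p below 0.05, and the exceptions of *Plac1*, *Tfap2c* and *Gata3* are given with their values above. DESeq2 gave no adjusted p for *Plac1* or *Krt9*. Of the 10 genes, 4 to 5 were called in the heterozygous deletion, 5 to 6 in the homozygous deletion and 3 to 5 between the deletions when libraries were left out in turn, and 1, 0 and 0 with the fold threshold. Over all genes, DESeq2 called 482, 2265 and 2761 in the 3 comparisons, the fold threshold left 28, 362 and 236, and leaving out a library gave 352 to 1306, 2148 to 3618 and 2908 to 4357. For the other keratins, no filter and only the libraries compared each called 2 in the heterozygous deletion, and the fold threshold left 0. DESeq2 called 1 in the homozygous deletion and 0 between the deletions, and the fold threshold left 1 in each. Without single libraries the counts were 0 to 2, 2 and 1 to 3. Causes were not tested.

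With the replicate block, 5, 6 and 4 of the 10 genes and 816, 3447 and 4150 of all genes were called, and the block changed no call of the 10 genes. Among the other named genes it ended those of *Elf3* and *Klf4* in the homozygous deletion. Correlations of same-numbered libraries between genotypes were 0.0262, -0.125 and 0.0113, so the numbers were not taken to pair libraries. The block with crossed numbers, chosen after seeing the data, called 6 of the 10 genes and 3751 of all genes in the homozygous deletion. Depth limits *Elf5*, *Plac1*, *Cdx2* and *Hand1*, which had at most 71 counts in a library.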
